A study of Mus musculus with 2 samples.

Results

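Calm2 and Calm3 are 2 of the 32285 genes counted in these libraries. Both encode calmodulin, a small calcium sensor with EF-hand domains that changes shape when it binds calcium and then switches on partner proteins such as kinases, the phosphatase calcineurin and unconventional myosins. In mammals calmodulin comes from more than 1 gene, so cells can make one protein from several mRNAs with different regulatory ends. In the gut lining calmodulin is known as a light chain of the brush border myosin Myo1a, and calcium signals drive hormone release from enteroendocrine cells and the chemosensory responses of tuft cells. The pair was chosen by gene symbol, with its levels in these libraries known, so its levels, shares and ratios are given as a description without tests.

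Single-cell RNA-seq was carried out on intestinal crypt cells of MG53-TG mice, which overexpress MG53 (the membrane repair protein TRIM72, encoded by Trim72) throughout the body, and of their wild type (WT) littermates. Both groups drank 2.5% dextran sulfate sodium (DSS), which injures the gut lining, and were sampled on day 7. Live (7-AAD-) EpCAM+ cells were sorted and captured with a droplet kit that reads the 3′ end of each mRNA and counts unique molecular identifiers (UMIs). Each genotype is 1 library, so library and genotype cannot be told apart. The study names more than 1 mouse per group for this experiment, but neither the labels nor the tables assign cells to mice, and ages are not in the labels.

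Barcodes with at least 1354 UMIs, 200 genes and at most 25% mitochondrial UMIs were kept, and likely doublets were removed, which left 6963 WT cells (median 14035 UMIs) and 4941 MG53-TG cells (median 17950 UMIs). The libraries shared 8 cell barcodes. Of 27 clusters, 22 were epithelial and fell into 8 types named "X-like" from fixed markers, with 6119 WT and 4606 MG53-TG cells. Non-epithelial cells made up 12.1% of WT and 6.78% of MG53-TG cells, most of them T cell-like, although the study describes the analysed cells as EpCAM+ and CD45-, a gate that would remove them. The labels give only the EpCAM and 7-AAD sort. Trim72 reached 0.594 CPM (UMIs of a gene per 1000000 UMIs of the cells summed) in WT and 50.8 CPM in MG53-TG epithelium, so each library matched its label. The mitochondrial limit had removed 33.7% of WT and 46.1% of MG53-TG barcodes that met the other minimums.

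Calm2 (ENSMUSG00000036438) lies on the minus strand of chr17:87433412-87446935 and Calm3 (ENSMUSG00000019370) on the minus strand of chr7:16915379-16924114, both in GRCm38 with the GENCODE M21 annotation. Neither locus overlaps another annotated gene. The annotated transcript compared here has 6 exons and a coding sequence of 450 bases in each gene. The 2 coding sequences share 372 bases (82.7%), and 74 of the 78 differences fall on the third base of a codon. All 149 residues are the same after translation, so the genes differ in mRNA and not in product. The last 150 coding bases, positions 301 to 450 with the stop codon at the end, are printed 5′ to 3′ to show how one protein stretch is spelled in both genes. Capitals mark the 28 positions at which the 2 differ.
Calm2: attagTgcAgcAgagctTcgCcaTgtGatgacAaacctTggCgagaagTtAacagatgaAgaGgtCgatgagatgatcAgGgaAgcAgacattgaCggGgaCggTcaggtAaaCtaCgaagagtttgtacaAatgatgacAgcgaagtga
Calm3: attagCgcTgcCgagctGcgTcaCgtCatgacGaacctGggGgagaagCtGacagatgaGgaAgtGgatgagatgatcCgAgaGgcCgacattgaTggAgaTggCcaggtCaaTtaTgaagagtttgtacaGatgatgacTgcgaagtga

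The longest stretch common to both coding sequences is 17 bases. A 3′ library reads the end of the mRNA, beyond the coding part. There the annotated transcripts also differ in length, with a 3′ untranslated region of 615 bases in Calm2 and 1569 bases in Calm3. None of the 451 windows of 50 bases in the last 500 bases of either transcript occurred in an annotated transcript of any other gene. Since 1 UMI stands for 1 captured mRNA whatever its length, the UMIs of the 2 genes were set side by side and the Calm3 share, Calm3 UMIs as a percentage of the UMIs of both genes, was computed. Capture efficiency was not compared between the 2 mRNA ends.

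In WT epithelium Calm2 was the more abundant mRNA of the pair. It had 47864 UMIs or 451 CPM (95% interval 447 to 455), and Calm3 had 26141 UMIs or 247 CPM (244 to 250), a Calm3 share of 35.3% (34.98 to 35.7). In MG53-TG epithelium Calm2 had 47687 UMIs or 530 CPM (525 to 535) and Calm3 had 17119 UMIs or 190 CPM (188 to 193), a share of 26.4% (26.1 to 26.8). Intervals of levels, shares and ratios are exact Poisson, binomial or conditional binomial intervals at 95%. Intervals of share differences combine the exact binomial limits of both shares by Newcombe's method. All intervals given here cover counting error only. They say nothing of the spread between mice.

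Tuft cells, the chemosensory cells of the gut lining, held the most Calm2. The tuft-like cells (231 WT and 285 MG53-TG cells, with 11 tuft markers detected in each of their clusters) reached 1721 CPM for WT and 1791 CPM for MG53-TG, which was 4.10-fold (3.98 to 4.23) and 3.801-fold (3.71 to 3.90) the level of the other epithelial cells of the same library. Among the 8 types Calm3 was also highest in these cells, at 399 CPM for WT and 331 CPM for MG53-TG, but only 1.64-fold (1.54 to 1.75) and 1.80-fold (1.70 to 1.90) over the others. The Calm3 share was therefore the lowest of the 8 types, at 18.8% in WT and 15.6% in MG53-TG. In tuft-like cells of at least 5000 UMIs, the median cell had 17.1 Calm2 UMIs per 10000 in WT, with quartiles of 13.0 and 21.3. Every other type had an upper quartile of 8.22 or less in both libraries.

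Paneth cells, which secrete antimicrobial peptides at the crypt base, had the lowest CPM of both mRNAs among the epithelial types. Paneth-like cells had 120 and 125 CPM of Calm2 and 74.4 and 47.6 CPM of Calm3 in WT and MG53-TG. Calm2 stood at 0.243-fold (0.231 to 0.256) and 0.226-fold (0.209 to 0.244) and Calm3 at 0.277-fold (0.259 to 0.296) and 0.239-fold (0.210 to 0.270) the other epithelial cells. The share in WT Paneth-like cells, 38.2% (36.2 to 40.2), lay within the range of the remaining types. These were also the deepest cells, with medians of 47966 and 38984 UMIs. Counted per cell, the ranking did not hold in WT. There, 250 Paneth-like cells had 1462 Calm2 and 904 Calm3 UMIs, against 5513 and 3339 in 1269 goblet-like cells. In MG53-TG it held, with 659 and 250 UMIs in 119 Paneth-like cells against 10121 and 4223 in 1580 goblet-like cells. Only 559 genes had at least 50 CPM in both libraries in Paneth-like cells, against 2119 in goblet-like cells.

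Between these extremes the order of Calm2 in WT ran from stem-like cells at 595 CPM (584 to 605) and enteroendocrine-like cells at 565 CPM (535 to 597) to absorptive progenitor-like cells at 466 CPM (457 to 475), enterocyte-like cells at 456 CPM (446 to 466), secretory progenitor-like cells at 380 CPM (368 to 392) and goblet-like cells at 320 CPM (312 to 329). Intervals of stem-like and enteroendocrine-like cells overlapped, as did those of absorptive progenitor-like and enterocyte-like cells, so these neighbours did not differ beyond counting error. In MG53-TG the order was stem-like at 654 CPM, absorptive progenitor-like at 566 CPM, enteroendocrine-like at 565 CPM, enterocyte-like at 515 CPM, secretory progenitor-like at 477 CPM and goblet-like at 373 CPM. Mucus-making goblet-like cells were the lowest but for Paneth-like cells in both libraries.

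Calm3 followed another order. After tuft-like cells, WT enteroendocrine-like cells, the hormone producers, came next at 356 CPM (332 to 381), then enterocyte-like cells at 303 CPM (295 to 311), stem-like cells at 293 CPM (286 to 300), absorptive progenitor-like cells at 272 CPM (265 to 279), secretory progenitor-like cells at 222 CPM (213 to 231) and goblet-like cells at 194 CPM (188 to 201). Enterocyte-like and stem-like intervals overlapped. In MG53-TG the values were 274 CPM in enteroendocrine-like, 217 CPM in stem-like, 214 CPM in enterocyte-like, 208 CPM in absorptive progenitor-like, 190 CPM in secretory progenitor-like and 156 CPM in goblet-like cells. Leaving tuft-like cells aside, the Calm3 share was lowest in stem-like cells of both libraries, at 33.0% in WT and 24.9% in MG53-TG. It was highest in WT enterocyte-like cells, at 39.9%, and in MG53-TG enteroendocrine-like cells, at 32.7%.

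**Figure D1:**
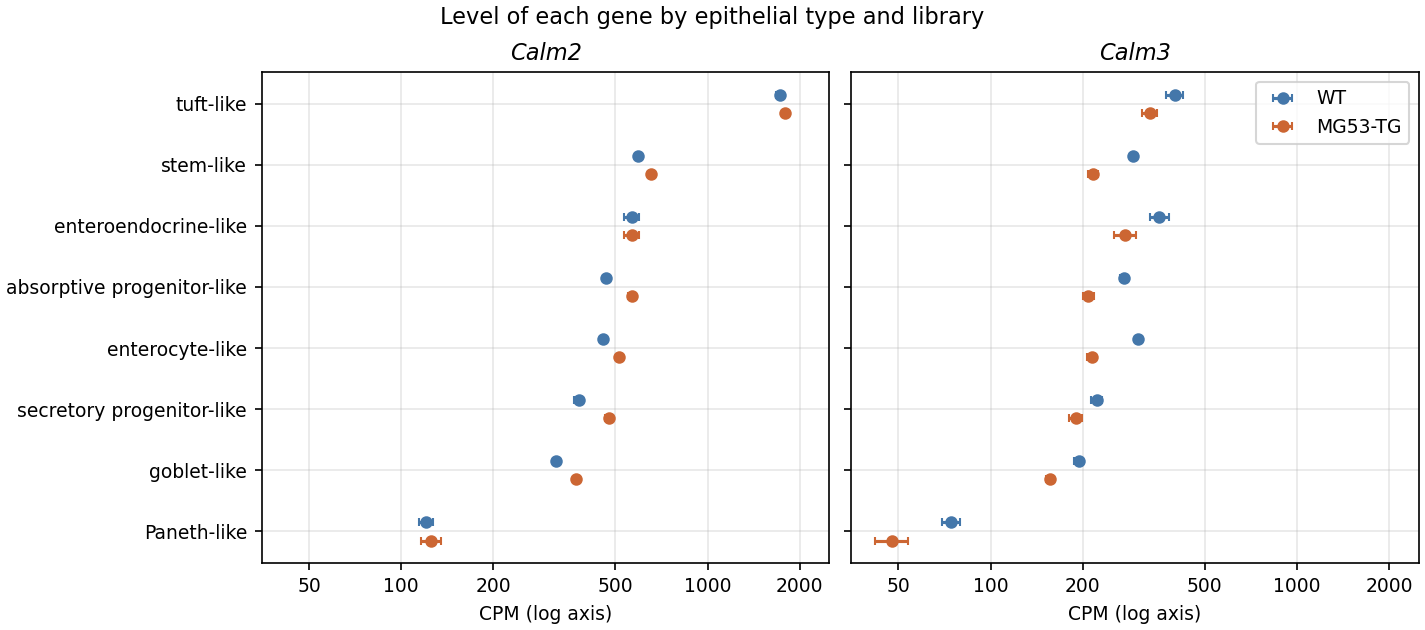
Calm2 (left) and Calm3 (right) in CPM of summed UMIs on a log axis for the 8 epithelial types, WT in blue and MG53-TG in orange, with bars for the exact 95% Poisson interval. Calm2 spans 120 to 1721 CPM in WT, Calm3 spans 74.4 to 399 CPM, and the MG53-TG point of Calm3 lies to the left of the WT point in each of the 8 types.

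Within stem-like and secretory progenitor-like cells, the clusters with mitotic genes had more Calm2. These cluster contrasts were picked after the values had been seen and are descriptions. The stem-like cluster led by Nusap1 and Top2a, genes of dividing cells, had 759 CPM of Calm2 in WT and 816 CPM in MG53-TG, whereas the stem-like cluster led by Olfm4 and Ascl2, genes of crypt base stem cells, had 310 and 370 CPM. The ratio was 2.45 (2.34 to 2.56) in WT and 2.21 (2.09 to 2.33) in MG53-TG, while that of Calm3 was 1.25 (1.19 to 1.32) and 1.27 (1.17 to 1.38). In secretory progenitor-like cells, the cycling cluster led by Mxd3 and Cdc25b had 785 and 757 CPM of Calm2 against 335 and 392 CPM in the cluster with Dll1 and Spdef. The 2 ratios of Calm2 were 2.35 and 1.93, and those of Calm3 were 1.36 and 1.47. The cycling absorptive progenitor-like cluster, led by Cdkn3 and Cdc20, did not share the pattern, with Calm2 at 1.04-fold (0.991 to 1.09) in WT and 1.09-fold (1.02 to 1.16) in MG53-TG of the cluster with the gasdermin genes Gsdmc2 and Gsdmc4. The Olfm4 cluster had genes of DNA replication such as Mcm3 among its leading genes, so that contrast is not one of cycling against resting cells. The clusters with mitotic genes were also deeper than their counterparts in 5 of these 6 library comparisons, and the part of depth was not tested.

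Enterocyte-like clusters varied most in the balance of the pair. The cluster with the ileal bile acid carrier Slc10a2 and the acute phase gene Saa1 had more Calm3 than Calm2 in both libraries, with 614 Calm3 against 255 Calm2 UMIs in WT and 192 against 145 in MG53-TG. Calm3 made up 70.7% (67.5 to 73.7) of the pair there in WT and 57.0% (51.5 to 62.3) in MG53-TG. Against the enterocyte-like cluster with Adh6a and Aldh1a1, Calm2 was 0.449-fold and 0.529-fold and Calm3 2.32-fold and 2.25-fold in WT and MG53-TG. A second cluster, with Plb1 and Enpp7, enzymes of lipid digestion at the brush border, had shares of 48.0% and 35.9% against 31.8% and 23.7% in the Adh6a cluster. Depth moved with these shares: the median WT cell had 3338 UMIs in the Slc10a2 cluster, 4916 in the Plb1 cluster and 17874 in the Adh6a cluster. The goblet-like cluster with Ido1 and Zg16 was likewise shallower than the main goblet-like cluster with Scin and Mptx1 (medians of 6791 and 15440 UMIs in WT), and it had 474 UMIs of each gene in WT, a share of 50%, and a share of 39.98% in MG53-TG, against 35.7% and 28.3%. The part of depth in these contrasts was not tested.

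The 2 tuft-like clusters differed in Calm3 more than in Calm2. The cluster led by Nrgn, Matk and Siglecf had 445 CPM of Calm3 in WT (385 CPM in MG53-TG), and the cluster led by Nrep, Gng13 and Pou2f3 had 315 and 220.5 CPM. The ratio was 1.41 (1.23 to 1.62) in WT and 1.75 (1.53 to 1.996) in MG53-TG, against 1.08 and 1.11 for Calm2. Their depths were close, at medians of 10618 and 11271 UMIs in WT.

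**Figure D2:**
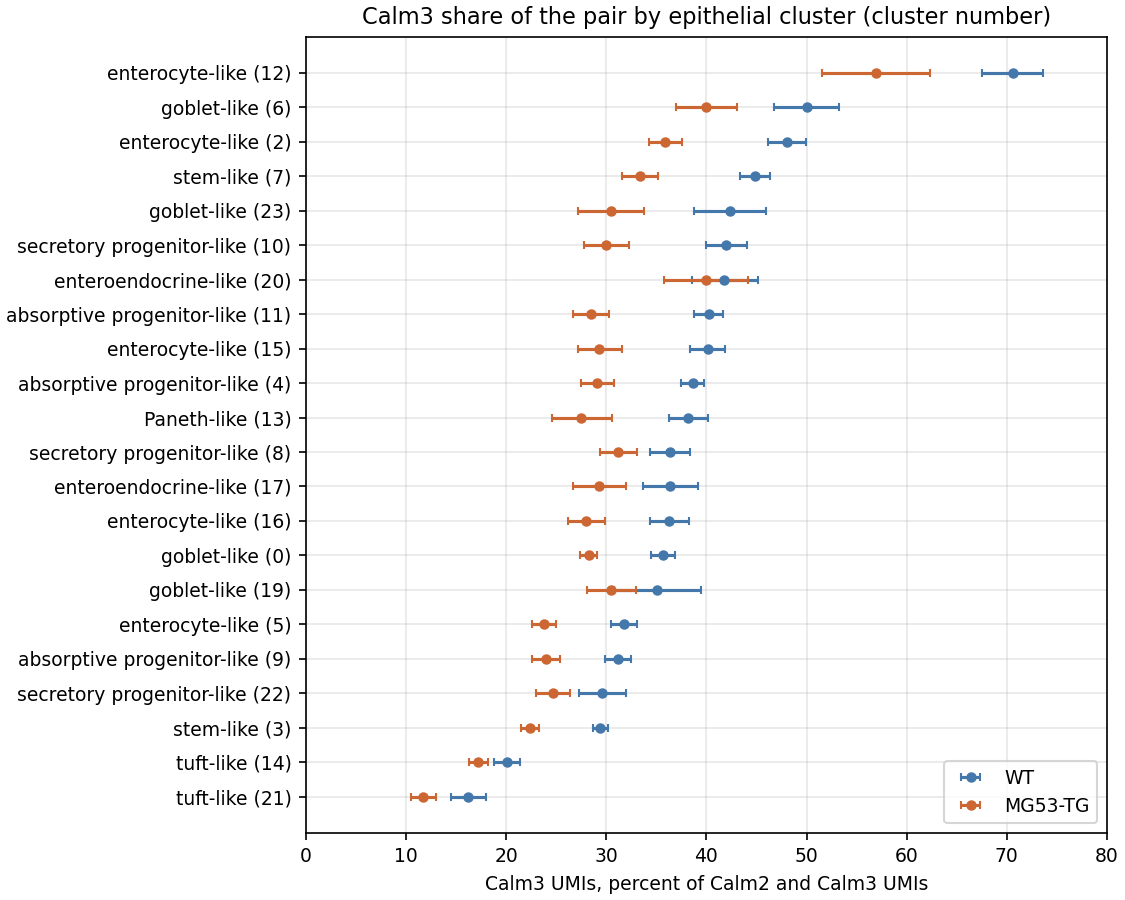
Calm3 UMIs as a percentage of the Calm2 and Calm3 UMIs in each of the 22 epithelial clusters, ordered by the WT value, with exact binomial 95% intervals and WT in blue, MG53-TG in orange. The share runs from 16.2% in a tuft-like cluster to 70.7% in the enterocyte-like cluster with Slc10a2 and Saa1 in WT, and each MG53-TG point lies to the left of its WT point.

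Between the libraries the 2 mRNAs differed in opposite directions. Calm2 was higher in MG53-TG epithelium by a log2 ratio of 0.23 (0.21 to 0.25), which is 1.17-fold (0.15, with an interval of 0.13 to 0.17, at a mitochondrial limit of 50%), and Calm3 was lower by a log2 ratio of -0.37 (-0.40 to -0.35), which is 0.772-fold. Summed over both genes, the level was 698 CPM for WT and 721 CPM for MG53-TG, a log2 ratio of 0.05 (0.03 to 0.06). The difference in Calm3 share, MG53-TG minus WT, was -8.91 percentage points (-9.39 to -8.42), a quantity that needs no scaling between libraries. Of the 2 members, only Calm3 was past 1.2-fold. Among the 2573 genes of at least 50 CPM, 4.7% were lower by that much in MG53-TG and 19.8% were higher. Calm3 was the 64th lowest of these 2573 ratios, whereas Calm2, at percentile 75.6, was well inside the distribution, whose median was 0.08.

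**Figure D3:**
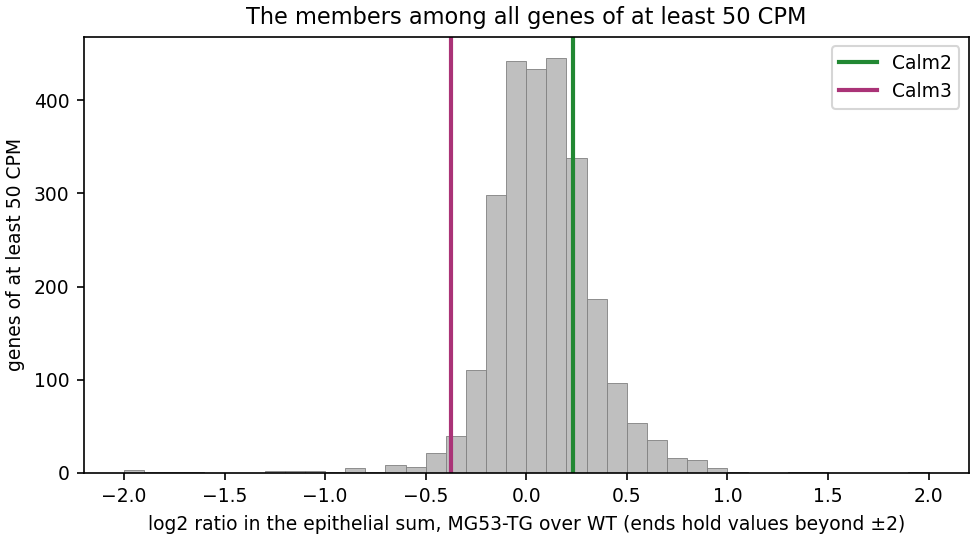
Number of genes of at least 50 CPM (2573 genes, vertical axis) by log2 ratio of MG53-TG over WT in the epithelial sum (horizontal axis), with lines at Calm2 in green and Calm3 in purple. Calm3 at -0.37 lies in the sparse lower tail and Calm2 at 0.23 on the upper shoulder of the distribution.

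By type, Calm3 was lower in MG53-TG in 8 of 8, with every interval below 0 and log2 ratios from -0.65 to -0.23. The lowest ratio was in Paneth-like cells, at -0.65 (-0.85 to -0.44), where 904 WT UMIs compared with 250 in MG53-TG. Next came enterocyte-like cells at -0.50 (-0.56 to -0.44), stem-like cells at -0.43 (-0.50 to -0.37), absorptive progenitor-like cells at -0.39 (-0.45 to -0.32) and enteroendocrine-like cells at -0.38 (-0.53 to -0.22). Goblet-like cells stood at -0.32 (-0.38 to -0.25), tuft-like cells at -0.27 (-0.39 to -0.15) and secretory progenitor-like cells at -0.23 (-0.32 to -0.14). In 7 of the 8 types the difference was past 1.2-fold, secretory progenitor-like cells being the exception. This count depends on the processing, since secretory progenitor-like cells passed that fold at -0.28 with scaling by the median of gene ratios, at -0.27 with doublets kept and at -0.41 with each library clustered alone, while enteroendocrine-like cells (-0.20 as a mean of single-cell CPM) and tuft-like cells (-0.25 from 5000 UMIs up and -0.20 with doublets kept) missed it. Of the 571 genes with at least 50 CPM in each type, 4.9% were below 0 in all 8 types, 1.58% were lower by 1.2-fold or more in 6 or more types and 1.05% in 7 or more.

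Calm2 was above 0 in 7 of 8 types, against 24.2% of the 571 genes with that many or more, a large share of genes. The log2 ratio was 0.33 (0.27 to 0.39) in secretory progenitor-like cells, or 0.19 (0.13 to 0.25) with each library clustered alone. The cycling cluster with much Calm2 gave 55 of their 609 WT cells but 100 of their 519 MG53-TG cells, and the ratio was -0.05 within that cluster, 0.23 in the Dll1 cluster and 0.33 in the Rnase1 cluster. It was 0.28 (0.24 to 0.33) in absorptive progenitor-like, 0.22 (0.17 to 0.27) in goblet-like, 0.18 (0.13 to 0.22) in enterocyte-like and 0.14 (0.10 to 0.18) in stem-like cells. In Paneth-like cells it was 0.06 (-0.08 to 0.19), with values from -0.14 to 0.36 under other processing, in tuft-like cells 0.06 (0.00 to 0.11), with values from 0.00 to 0.18 (doublets kept) under other processing, and in enteroendocrine-like cells -0.00 (-0.12 to 0.12), where 1282 WT UMIs and 1171 MG53-TG UMIs gave the same 565 CPM. The epithelial sum weighs types by their UMIs, of which tuft-like cells gave 4022763 of 89935488 in MG53-TG against 2614111 of 106041896 in WT, and Paneth-like cells 5257134 against 12153421. Goblet-like cells, low in Calm2, gave 27104954 in MG53-TG against 17206534 in WT. Stem-like cells, high in Calm2, gave 12888843 against 21070612.

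**Figure D4:**
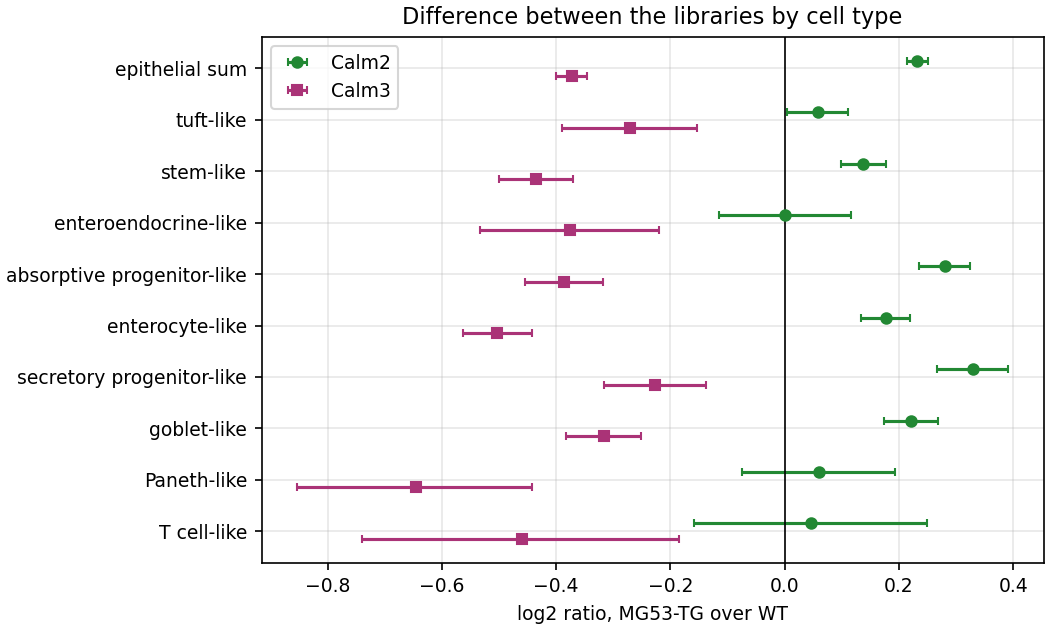
Log2 ratio of MG53-TG over WT (horizontal axis) for Calm2 (green circles) and Calm3 (purple squares) in the epithelial sum, the 8 epithelial types and the T cell-like cells, with conditional binomial 95% intervals. Each Calm3 point lies below 0, from -0.65 to -0.23 among the epithelial types, and Calm2 points lie between -0.00 and 0.33.

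The share was lower in MG53-TG in each type, by -10.7 points (-14.2 to -7.10) in Paneth-like, -10.6 (-11.7 to -9.46) in enterocyte-like and -9.96 (-11.1 to -8.78) in absorptive progenitor-like cells. Secretory progenitor-like, goblet-like and stem-like cells had differences of -8.44, -8.28 and -8.11 points. The smallest were -5.97 points (-9.03 to -2.89) in enteroendocrine-like and -3.24 points (-4.54 to -1.95) in tuft-like cells, the latter from a share that was already low in WT. The level of both genes together did not have a common direction, being above 0 in 4 types and below 0 in 4, with log2 ratios from -0.17 in Paneth-like to 0.15 in secretory progenitor-like cells.

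Over the 22 epithelial clusters, Calm3 was lower in MG53-TG in 22, with 20 intervals below 0 and a range of -0.65 to -0.00. Calm2 was higher in 19 of 22, with 15 intervals above 0, and the share was lower in 22 of 22, by -13.7 to -1.87 points. The 2 clusters whose Calm3 interval reached 0 were a secretory progenitor-like cluster with Rnase1 and Retnlb, at 172.5 CPM for WT and 171.9 CPM for MG53-TG, and the goblet-like cluster led by the interferon genes Ifi44 and Iigp1, at 195 and 168 CPM. The share of all genes with such counts over the clusters was not computed. Clusters and types of one library share its preparation and are not replicates.

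T cell-like cells, which came through the sort and are not epithelium, had lower Calm3 in MG53-TG too. Calm3 was at 210 CPM in 638 WT cells and 153 CPM in 250 MG53-TG cells, a log2 ratio of -0.46 (-0.74 to -0.19), and Calm2 was at 301 and 311 CPM, a ratio of 0.05 (-0.16 to 0.25). They had a share of 41.1% (WT) and 33.0% (MG53-TG). In a smaller unnamed cluster with the T cell genes Cd8b1 and Cd5, Calm3 had only 72 and 39 UMIs, at a log2 ratio of 0.13 (-0.48 to 0.71). The 20 WT and 12 MG53-TG cells with B or plasma cell genes had only 54 and 13 Calm3 UMIs, and the difference in share, -1.28 points (-17.6 to 17.2), was not detectable at this depth. In the epithelial sum, 10 of 10 T cell markers had a UMI in both libraries, at a summed 33.1 CPM in WT against 19.8 CPM in MG53-TG, compared with 59407 and 63585 CPM in the T cell-like cells themselves. Over the 8 epithelial types the summed level ran from 9.96 to 454 CPM in WT and from 3.88 to 266 CPM in MG53-TG. It was highest in tuft-like cells, where Ptprc made up 213 and 260 CPM of it, which was nearly all of it in MG53-TG. The T cell protease gene Gzma was at 187 CPM in WT but 3.98 CPM in MG53-TG tuft-like cells, and Cd3g, a subunit of the T cell receptor complex, at 16.1 and 0.746 CPM. Cd3e, another such subunit, was at 0 in MG53-TG tuft-like, Paneth-like and secretory progenitor-like cells. The part of T cell RNA in the difference between the libraries was not tested.

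Depth, mitochondrial content and free RNA were then set beside these differences, with ranges that were chosen after the values had been seen. Split at the quartiles of UMIs per epithelial cell, Calm3 was lower in MG53-TG in each quartile, at 312 against 260 CPM in cells under 9871 UMIs, 263 against 213, 249 against 189 and, from 22918 UMIs up, 224 against 177 CPM. Calm2 was higher in MG53-TG in the upper 3 quartiles, at 480 against 609, 451 against 518 and 447 against 529 CPM, but lower in the shallowest cells, at 409 CPM (396 to 422) against 361 CPM (344 to 379). The shallowest quartile was thus the one with little difference in share, 43.3% (42.2 to 44.5) in WT and 41.8% (40.0 to 43.7) in MG53-TG with overlapping intervals, while the other quartiles had 35.4% against 25.9%, 35.5% against 26.7% and 33.4% against 25.01%. Within each type, cells were also split at the type's median depth. Calm3 was below 0 in 8 of 8 types on either side of that split. Among shallower cells its interval crossed 0 in enteroendocrine-like cells, at -0.02 (-0.31 to 0.27), and secretory progenitor-like cells, at -0.15 (-0.32 to 0.02). Calm2 was above 0 in 7 of 8 among deeper cells and in 4 of 8 among shallower cells. The sign of Calm2 was thus not stable with depth: its log2 ratio was -0.22 (-0.37 to -0.08) in shallow enterocyte-like, -0.21 (-0.31 to -0.11) in shallow tuft-like and -0.20 (-0.37 to -0.03) in deep Paneth-like cells. The share difference was below 0 in 8 of 8 and in 7 of 8 types, shallow enteroendocrine-like cells being the exception at 3.68 points (-3.11 to 10.5). That of shallow tuft-like cells, -0.27 points (-2.73 to 2.22), also had an interval across 0. For the splits within types, by depth and by mitochondrial percentage, the share of all genes with such counts was not computed.

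Across mitochondrial percentages the share was lower in MG53-TG in each range. It was 37.4% in WT and 30.1% in MG53-TG at 0 to 2%, 34.4% and 25.8% at 2 to 5%, 34.5% and 24.1% at 5 to 10%, and 39.3% and 32.0% at 10 to 25%. The Calm3 level itself hardly differed at 0 to 2%, at 135 CPM (130 to 141) against 132 CPM (126 to 139), where Calm2 was at 227 against 307 CPM. That range mixes types in unequal parts, and Paneth-like cells, with medians of 0.937% and 0.910% mitochondrial UMIs, lie mostly in it. Within types, split at the median mitochondrial percentage of each, Calm3 was lower in MG53-TG in 8 of 8 types on either side (-0.61 to -0.18 in the lower part), while Calm2 was higher in 8 of 8 in the lower part and in 5 of 8 in the upper. Barcodes over the limit, which are not among the cells above, had a different balance. From 25 to 50% mitochondrial UMIs, Calm2 was at 124 CPM for WT and 128 CPM for MG53-TG and Calm3 at 189 and 144 CPM, and the share was 60.3% (58.7 to 61.9) and 53.0% (51.5 to 54.4). CPM there is taken over totals that include the mitochondrial UMIs, but the share is not affected by them. The WT table also lists empty droplets: 1434027 barcodes under 100 UMIs held 2070 Calm2 and 1146 Calm3 UMIs, or 346 and 192 CPM, with a share of 35.6% (34.0 to 37.3) that is close to that of WT epithelium. The MG53-TG table starts at 500 UMIs, and its free RNA could not be measured. Depth, mitochondrial range and barcode list differ with the library, as does the program version that counted the reads, and the part of the last in the difference between the libraries was not tested.

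**Figure D5:**
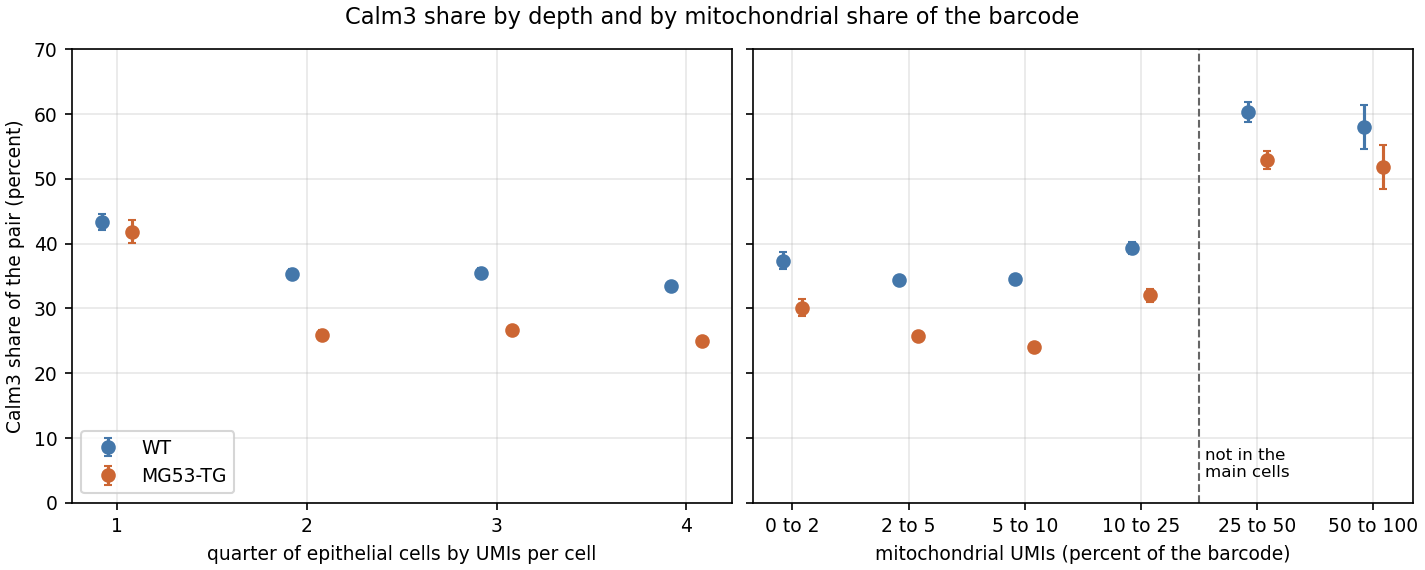
Calm3 share of the pair in percent (vertical axis) by quartile of UMIs per epithelial cell (left, 1 is the shallowest) and by mitochondrial percentage of the barcode (right), with exact binomial 95% intervals, WT in blue and MG53-TG in orange. Barcodes to the right of the dashed line were left out of the cells analysed. MG53-TG lies below WT in each bin, with the smallest gap, 43.3% against 41.8%, in the shallowest quartile, and the share is 60.3% and 53.0% from 25 to 50% mitochondrial UMIs.

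The partners of calmodulin were described from 8 lists of 117 genes by their level in the epithelial sum, where 15.1% of the 14656 genes with at least 30 UMIs were higher in MG53-TG by 1.2-fold or more and 4.33% were lower. These lists were chosen with results of these data known. Of 15 genes for calcium entry, release and pumps with enough UMIs, 8 were higher by that much and 0 lower, with a median log2 ratio of 0.30 against 0.07 for all genes. Trpm5, the calcium-activated channel of tuft cells, was at 25.1 CPM for WT and 42.3 CPM for MG53-TG. Itpr2, a calcium release channel, was at 23.3 and 37.1 CPM, and Atp2a3, a calcium pump of the endoplasmic reticulum, at 98.3 and 152 CPM. Within tuft-like cells, however, Trpm5 was at 966 and 924 CPM, Itpr2 at 516 and 531 CPM and Atp2a3 at 1040 and 997 CPM, so the libraries differed far less there than in the sum.

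Among calmodulin-dependent kinases and their regulators, 6 of 16 were higher and 1 was lower, with a median of 0.13, or 0.28 over the 5 genes of at least 20 CPM and 0.05 with a pseudocount of 5 CPM in place of 1. Camk2d, a CaM kinase II subunit, stood at 101 CPM for WT and 122 CPM for MG53-TG, and Camk2n1, an inhibitor of that kinase, at 55.1 and 74.4 CPM. Within goblet-like cells, Camk2d was at 164 and 168 CPM and Camk2n1 at 140.1 and 140.6 CPM. Of the calcineurin list, 3 of 10 were higher and 0 lower (median 0.18). Ppp3ca, a catalytic subunit of the phosphatase, was at 66.1 and 79.2 CPM, and Ppp3cb, another, at 26.4 and 29.4 CPM. Rcan3, a calcineurin regulator, was at 18.2 and 27.8 CPM in the sum, but at 61.8 and 63.5 CPM within goblet-like cells.

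Unconventional myosins, which carry calmodulin as a light chain, included 4 of 12 genes that were higher and 0 that were lower (median 0.20). Myo1a, the brush border myosin, was highest in enterocyte-like cells at 864 CPM for WT and 855.5 CPM for MG53-TG, and in the sum it hardly differed, at 336 and 348 CPM. Myo5c, a myosin of secretory cells, was at 34.3 and 56.3 CPM in the sum, against 121 and 135 CPM within goblet-like cells. Myo10, a myosin of filopodia, was at 27.2 and 35.3 CPM in the sum.

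Among proteins that buffer calmodulin or scaffold it, 3 of 12 were higher and 2 lower (median 0.13, or 0.21 over the 5 genes of at least 20 CPM). Nrgn, which encodes neurogranin, a protein that holds calmodulin at low calcium, had 942 CPM for WT and 868 CPM for MG53-TG tuft-like cells, which also had the most Calm2. The next type was Paneth-like in WT, at 6.66 CPM, and stem-like in MG53-TG, at 1.86 CPM, and the epithelial sum held 24.6 and 39.5 CPM. Iqgap2, a scaffold, was at 101 and 133 CPM. The list of other calmodulin-regulated enzymes and channels had 5 of 15 genes higher and 2 lower (median 0.04, but 0.64 over the 3 genes of at least 20 CPM and 0.01 or 0.13 with a pseudocount of 5 or 0.1 CPM). Of calmodulin-like genes only Calml4, whose product is a light chain in the brush border, had enough UMIs, at 430 and 482 CPM in the sum and 1473 and 1350 CPM in tuft-like cells. Among 17 other EF-hand genes, 1 was higher and 0 were lower (median 0.08). S100a10 was at 661 and 572 CPM and S100g, the calcium carrier calbindin-D9k, at 24.3 and 24.5 CPM. Within types S100g differed in both directions. It was at 18.7 and 56.3 CPM in absorptive progenitor-like cells and at 98.3 and 75.2 CPM in enterocyte-like cells.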

How the data were processed

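Both samples were 10x Genomics 3′ libraries, 1 per genotype. The deposited values are raw UMI counts per gene and barcode, which the authors made with Cell Ranger (per the file headers, version 4 in WT but 6.0.1 in MG53-TG) on mm10 and did not scale. The labels name Seurat for later steps. How multi-mapped reads were handled is not given in the sources used here. The WT table lists 2005718 barcodes with 158455748 UMIs and that of MG53-TG has 12361 barcodes with 128227881 UMIs.

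Barcodes were filtered as stated in the report, with the UMI minimum at the inflection of the WT rank curve. The top doublet scores of Scrublet (scanpy 1.11.5) were removed at 0.8% per 1000 cells, which took out 438 WT and 212 MG53-TG cells. Cells were clustered together with 2000 variable genes, 30 components and 15 neighbours (Leiden, resolution 1), without Calm2, Calm3, their listed partners and Trim72. A cluster was named from at least 3 fixed markers, each in 10% of its cells at 1.5-fold, and borders between types of one lineage are soft. UMIs were summed per type and library. Log2 ratios put MG53-TG over WT. With 1 library per group no test was made. The interval code was tested on simulated counts.

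Named partner genes were the up to 4 of each list with the largest ratio among those of at least 20 CPM in either library, plus Calml4, Myo1a, Ppp3ca, Camk2d and S100g, and not all of them are printed. The members and lists were chosen with earlier results of these data known.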

Additional observations from a re-analysis of the deposited data

Results flagged for a closer look

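Both flagged results lie in barcodes that the comparisons did not use. Barcodes with 25 to 50% mitochondrial UMIs, which are over the limit, had a Calm3 share of 60.3% in WT and 53.0% in MG53-TG, above the share of the kept epithelial cells in both libraries. WT barcodes under 100 UMIs, which are mostly empty droplets, held 2070 Calm2 UMIs and 1146 Calm3 UMIs.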

How the results depend on the processing

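No paired analysis was possible because each group is 1 library, and for the same reason no replicate could be left out. No ratio or share difference of the epithelial sum or the 8 types whose interval excluded 0 changed sign under the alternatives run for it. The 50% mitochondrial limit was run for the epithelial sum only, and the lists were rerun only with other pseudocounts and a minimum of 20 CPM. Clusters, contrasts between types, T cell-like cells and ranges of depth were not rerun under them. The Calm2 log2 ratio, 0.23 as reported, was 0.17 when scaled by the median of gene ratios, 0.21 without mitochondrial and the most abundant genes in the denominator, 0.15 with a mitochondrial limit of 50% and 0.16 as an unweighted mean over types. The Calm3 log2 ratio, -0.37 as reported, was -0.44 with the median of gene ratios and -0.41 as a mean of single-cell CPM. The share difference, -8.91 points as reported, was -9.58 with single-cell CPM, -8.27 at the 50% limit and -8.16 as an unweighted mean. With a fold of 1.1 or 1.5 in place of 1.2, 356 or 27 genes of at least 50 CPM were lower in MG53-TG (121 as reported) and 1020 or 82 were higher (510). By type, over all alternatives run, Calm3 was below 0 in 80 of 80 values (-0.80 to -0.20), the share difference in 64 of 64 (-14.7 to -2.95 points), and Calm2 was above 0 in 70 of 80 (-0.14 to 0.39). The Calm2 ratio of Paneth-like cells, 0.06 as reported with an interval across 0, was -0.13 with a minimum of 500 UMIs, -0.08 at Leiden resolution 2 and -0.14 with each library clustered alone, and that of enteroendocrine-like cells, -0.00 as reported, ran from -0.05 to 0.06. Over genes of at least 50 CPM in both libraries, the median log2 ratio was 0.06 in the epithelial sum (2262 genes) and -0.12 in Paneth-like cells (559 genes), and with the latter taken as 0 the Calm3 ratio there was -0.53 in place of -0.65. Counts limit only small units such as B or plasma cell-like cells, and the spread between mice is unknown.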

Other observations

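Over the 16 sums of 8 types in 2 libraries, the genes whose log2 level ran most like Calm2, among 461 genes of at least 50 CPM in each sum, were D8Ertd738e (Pearson's r 0.96), Romo1 (0.96), Eif1 (0.94), Tubb4b (0.93) and Arpc1b (0.93). Those most like Calm3 were Cfl1 (0.95), Elob (0.95), Arpc1b (0.94), Actg1 (0.94) and Ubb (0.94). Calm2 and Calm3 had an r of 0.86 with each other. The 16 points share library, depth and types, and these values are a description.

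The genes within 250 kb of Calm3 with at least 20 CPM did not share its lower level in MG53-TG epithelium. Ap2s1, an adaptor subunit of endocytosis, was at 141 CPM for WT and 149 CPM for MG53-TG, Slc1a5, a glutamine carrier, at 43.2 and 58.7 CPM and Ppp5c, a phosphatase, at 30.6 and 31.2 CPM. Near Calm2, Mcfd2 was at 46.5 and 57.3 CPM, Ttc7 at 28.9 and 33.2 CPM and Epcam at 567 and 600.3 CPM.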
